A study of Homo sapiens with 3 samples.

Results

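MAP3K3, MAP3K2, MAP2K5, MAPK7, KLF2, KLF4, KLF6, MEF2A, MEF2C and MEF2D encode a kinase cascade to which TRAF7 binds and the transcription factors that act at its end. These 10 genes were taken by name from the 58735 genes with a value in each library, and all 10 were found. The series holds 3 RNA-seq libraries, all from cells that carry the label KG1a, a human line derived from acute myeloid leukaemia. The cells of 2 libraries, labelled TRAF7 knockdown and numbered 1 and 2, had received shTRAF7 lentivirus, which carries a short hairpin RNA against TRAF7. The cells of the third, labelled wild type, had received shCtrl lentivirus. All 3 carry 1 batch label, and the labels do not say whether the knockdown libraries share a hairpin or come from separate cultures. The spread between them may therefore be technical. The design asks how the levels of these genes differ when TRAF7 is depleted.

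In this pathway the kinases MEKK3 (MAP3K3) and MEKK2 (MAP3K2) phosphorylate MEK5 (MAP2K5), and MEK5 phosphorylates ERK5 (MAPK7), a large MAP kinase with a transcriptional activation domain of its own. ERK5 phosphorylates and activates MEF2 factors, and these drive transcription of KLF2 and KLF4, a route best known from endothelial cells, where the cerebral cavernous malformation (CCM) complex restrains MEKK3. TRAF7 is an E3 ubiquitin ligase that binds MEKK3, and in blood cells MEF2C and the KLF factors take part in lineage choice. Most of the cascade acts through phosphorylation, which RNA levels do not report.

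Reads assigned to genes, recovered from the deposited FPKM values (a read density corrected for exon length and depth), came to between 16014485 and 16254461 per library. TRAF7 was at 15.6 and 18.3 FPKM in the knockdown libraries 1 and 2, against 46.5 FPKM in the control, which is 33.6% and 39.4% of the control. The markers of the labelled line did not all appear. CD34, the stem cell antigen for which KG1a is known, had 1 and 10 reads in the knockdown libraries and 0 in the control, and CD44 had 2, 7 and 0 reads in the same order, while the leukocyte genes PTPRC and SPN were present at 5.60 and 45.3 FPKM in knockdown 1, 6.53 and 32.9 in knockdown 2 and 9.54 and 46.2 in the control. Erythroid and epithelial genes were present too: the fetal globin gene HBG1 was at 58.9 and 53.3 FPKM in the knockdown libraries and 26.4 in the control, and the keratin gene KRT8 at 68.9 and 60.9, against 49.0 in the control. The 7 erythroid markers summed to 153.5 and 148.3 FPKM in the knockdown libraries, against 120.4 in the control. That gap came mostly from HBG1 and not from the markers as a group. Of the 6 erythroid markers that averaged 1 FPKM or more, 2 were higher and 2 lower in both knockdown libraries. The lower ones were ALAS2 (6.99 and 9.13 FPKM, against 11.2) and EPOR (6.91 and 6.11, against 7.75). The 8 stromal and epithelial markers summed to 162.2 and 144.7, against 131.6. Of these 8, only the 3 epithelial genes KRT8, KRT18 and EPCAM averaged 1 FPKM or more. The epithelial gene CDH1 had 2 and 0 reads, against 0, and was among 4 of the 8 with at most 3 reads in every library. The 6 endothelial markers summed to 0.180 and 0.124 FPKM, against 0.309, and the 6 lymphoid ones to 5.64 and 6.84, against 7.39. Of the lymphoid markers only CD3D averaged 1 FPKM or more. The cells are therefore called by their label only. Sense intronic genes took 448.5 and 475.5 RPM in the knockdown libraries and 553.2 RPM in the control (reads per assigned total), and the part of these differences in the results was not tested.

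The 10 genes differed little between the knockdown libraries and the control, apart from KLF2, the lowest of them, which had 12 and 14 reads in the knockdown libraries. Of the 9 genes that averaged 1 FPKM or more, 3 were higher than the control in both knockdown libraries (MAP3K3, MAPK7 and KLF6), 3 were lower in both (KLF4, MEF2A and MEF2C) and 3 lay on either side of it (MAP3K2, MAP2K5 and MEF2D). Over all 12640 genes at that level, 42.5% were higher in both and 30.8% lower in both, so the directions of the 9 stood near the background. In the test across all of them, limma with intensity trend on log2(FPKM + 1), 0 of the 9 passed a Benjamini-Hochberg adjusted p of 0.05, and their adjusted p-values ran between 0.657 and 0.993. This was 0 of 12640 for all genes (percent called 0.0%), and at an unadjusted p under 0.05 it was 0 of the 9, against 9.19% of all genes. In limma-voom on the recovered reads, 0 of the 10 passed adjusted and 0 unadjusted, against 0.865% and 12.1% of all genes tested there. For 6 of the 9 genes the exact 95% counting interval of the ratio between the knockdown libraries excluded 1, against 46.8% of all genes. The median fitted log2 fold change of the 9 genes was −0.03, against 0.04 for all genes, and their median absolute log2 fold change was 0.15, against 0.19. The fit takes the spread of a gene from the knockdown pair alone, which leaves 1 degree of freedom, and gives the control library the same spread. It then moves that spread toward the intensity trend over all genes. The SE, intervals and p-values of a gene therefore draw on both. TRAF7 itself, at 33.6% and 39.4% of the control, did not pass the limma test either. Not passing that test therefore does not show that a gene is unchanged.

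**Figure D1:**
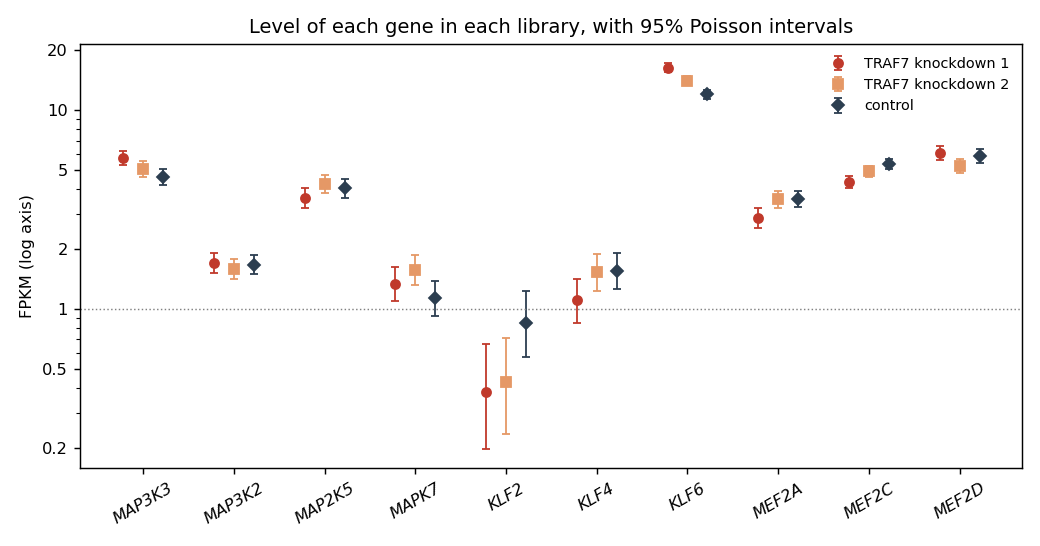
Level of each of the 10 genes in each library, in FPKM on a log axis, with bars for the exact 95% Poisson interval of the reads. KLF6 is the highest in all 3 libraries and KLF2 the lowest, and KLF2 lies below the dotted line at 1 FPKM.

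Levels per exon length differed widely among the 10 genes. KLF6 had the highest mean over the libraries, 14.1 FPKM, which placed it at rank 3421 of the 12640 genes. MEF2D (5.71 FPKM), MAP3K3 (5.13) and MEF2C (4.87) followed, each with a range over the libraries that overlapped that of its neighbour in this order. MAP2K5 (3.96), MEF2A (3.33) and MAP3K2 (1.65) came next with ranges apart from their neighbours. KLF4 (1.40) and MAPK7 (1.35) overlapped each other, and KLF2 (0.553 FPKM) stood below both.

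MAP3K3, which encodes the kinase that TRAF7 binds, was at 5.73 FPKM in knockdown 1 and 5.04 in knockdown 2, against 4.62 in the control (545, 501 and 476 reads). Both knockdown libraries were above the control, and the knockdown libraries also differed from each other beyond counting error (ratio of knockdown 1 to knockdown 2 1.14, exact 95% interval 1.01 to 1.29). The fitted log2 fold change was 0.18 ± 0.18 (SE; 95% interval −0.27 to 0.64; limma adjusted p = 0.784), an interval that spans 0. The gene (ENSG00000198909, plus strand) lies on chromosome 17 at positions 63622415 to 63696303 (GRCh38), and 402 bases of its exons are shared with exons of LIMD2 on the opposite strand, so reads there cannot be assigned with certainty without strand.

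MAP3K2, the close relative that acts at the same step, was at 1.70 and 1.59 FPKM in the knockdown libraries, against 1.66 in the control (305, 298 and 323 reads). Its 3 values overlapped within their counting intervals, and its log2 fold change was −0.01 ± 0.23 (SE; 95% interval −0.58 to 0.56; limma adjusted p = 0.993). Its locus is chromosome 2, 127298730 to 127388465, minus strand. The longest run of bases that any transcript of MAP3K3 shares with any of MAP3K2 is 18. Among 20 MAP3K and RAF genes, MAP3K3 ranked 6 by mean level and took 5.70% and 5.59% of their summed FPKM in the knockdown libraries, against 5.32% in the control. MAP3K2 ranked 15.

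MAP2K5, which encodes MEK5, was at 3.61 and 4.25 FPKM in the knockdown libraries, on either side of the 4.03 FPKM of the control (283, 348 and 342 reads). The knockdown libraries thus differed from each other (ratio 0.850, interval 0.724 to 0.997) by more than their mean differed from the control, and the log2 fold change was −0.03 ± 0.19 (SE; 95% interval −0.50 to 0.44; limma adjusted p = 0.973). The gene lies on chromosome 15 at positions 67542709 to 67807123 (plus strand).

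MAPK7, which encodes ERK5, was at 1.34 and 1.57 FPKM in the knockdown libraries, against 1.13 in the control (108, 133 and 99 reads). Knockdown 2 stood above the control beyond counting error (ratio 1.39, interval 1.07 to 1.83) and knockdown 1 did not (1.18, 0.893 to 1.57). The log2 fold change was 0.20 ± 0.25 (SE; 95% interval −0.42 to 0.82; limma adjusted p = 0.829). On chromosome 17 at positions 19377721 to 19383544 (plus strand), MAPK7 shares 243 exon bases with B9D1 on the opposite strand, a gene with 218 and 223 reads in the knockdown libraries and 165 in the control. B9D1, like MAPK7, had more reads in both knockdown libraries than in the control, and the part of shared reads was not tested.

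Against the other MAP kinases, ERK5 was a minor transcript. MAPK3 (ERK1) was at 16.5 FPKM in each of the 3 libraries. MAP2K1 (MEK1), a kinase of ERK1, was at 13.2 and 13.6 FPKM, against 10.3 in the control, with a log2 fold change of 0.35 ± 0.18 (SE; limma adjusted p = 0.590). MAP2K7, a kinase of JNK, was at 20.3 and 17.8 FPKM, against 16.5. Of 12 measured genes of the other MAP kinase cascades, 6 were higher in both knockdown libraries and 0 lower in both, 0 passed the test, and the median log2 fold change was 0.08.

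**Figure D2:**
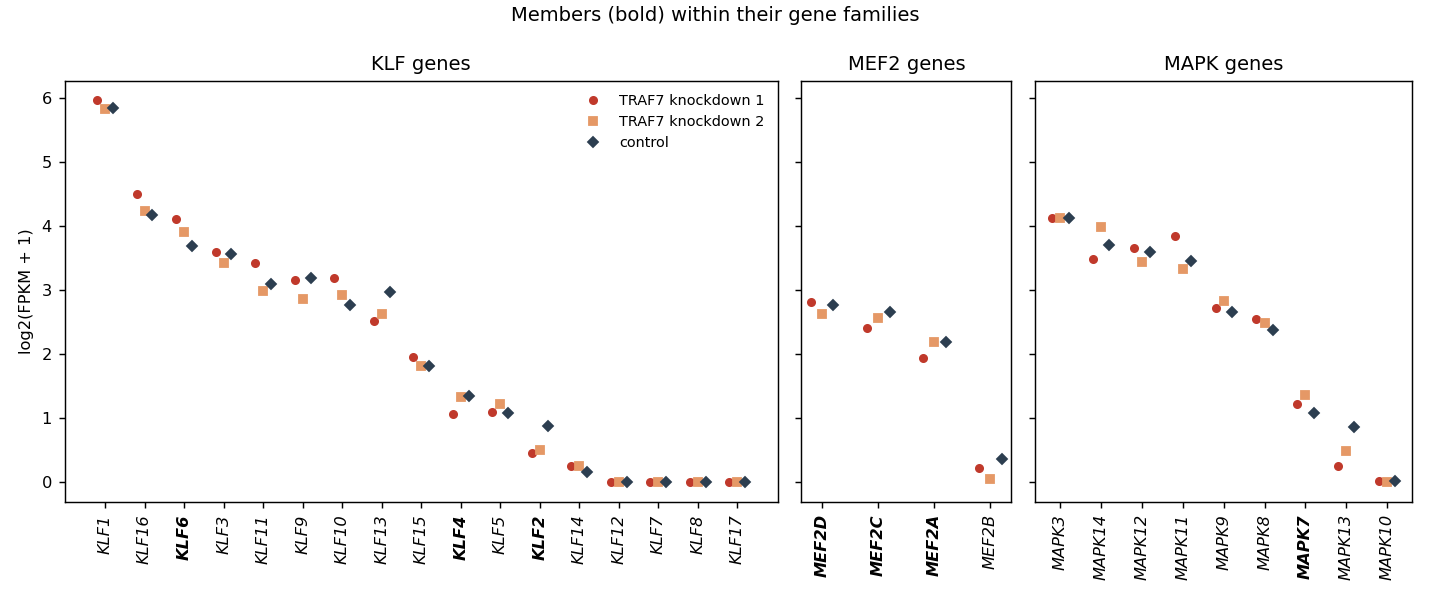
Levels in log2(FPKM + 1) of all KLF genes, MEF2 genes and the MAP kinases listed, each with its 3 libraries as points, and the members in bold. KLF1 leads the KLF genes, MEF2D, MEF2C and MEF2A lie close together, and MAPK7 lies below 6 other MAP kinases.

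**Figure D3:**
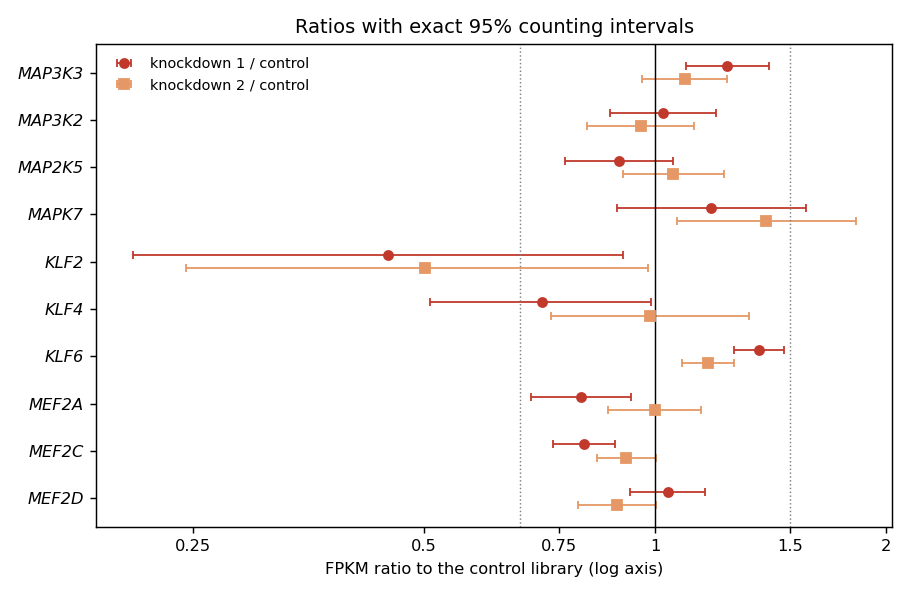
FPKM of each knockdown library divided by that of the control, on a log axis, with exact 95% intervals that cover counting error only. Dotted lines mark 1.5-fold in either direction. KLF2 alone lies past 1.5-fold in both libraries, and only KLF6 and KLF2 have both intervals on 1 side of 1.

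The MEF2 factors bind DNA through a MADS box at their start, and their shared start shows how the 3 paralogs differ at the level of reads. The first 84 coding bases of each (GENCODE release 29, in reading direction) are given with capitals at the 30 positions that are not the same in all 3.
MEF2A: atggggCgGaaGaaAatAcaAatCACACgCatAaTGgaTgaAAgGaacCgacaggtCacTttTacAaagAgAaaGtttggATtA
MEF2C: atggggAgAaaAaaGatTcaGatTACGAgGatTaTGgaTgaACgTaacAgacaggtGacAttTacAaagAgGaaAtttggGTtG
MEF2D: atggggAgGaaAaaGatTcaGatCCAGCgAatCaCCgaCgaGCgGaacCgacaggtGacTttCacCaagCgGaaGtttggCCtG
MEF2A and MEF2C are identical at 64 of these 84 bases and encode the same residue at 28 of 28 codons, and MEF2C and MEF2D at 64 bases and 26 codons. The longest run shared by any transcripts of MEF2A and MEF2C is 17 bases, of MEF2A and MEF2D 16 and of MEF2C and MEF2D 20.

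MEF2C, a regulator of myeloid and lymphoid fate that marks some leukaemias, was at 4.33 and 4.92 FPKM in the knockdown libraries, against 5.36 in the control (792, 940 and 1064 reads). Both were below the control, knockdown 1 beyond counting error (ratio 0.808, interval 0.736 to 0.886) and knockdown 2 not (0.917, 0.839 to 1.002), and they differed from each other (0.880, 0.800 to 0.969). The log2 fold change was −0.18 ± 0.18 (SE; 95% interval −0.63 to 0.27; limma adjusted p = 0.789). Its locus is chromosome 5, 88717117 to 88904257, minus strand. It shares 422 exon bases with MEF2C-AS1 on the opposite strand, which had 42 and 84 reads in the knockdown libraries and 59 in the control.

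MEF2A was at 2.86 and 3.56 FPKM in the knockdown libraries and 3.57 in the control (308, 401 and 417 reads), so knockdown 1 stood apart from the other 2 libraries and knockdown 2 was level with the control. Its log2 fold change was −0.12 ± 0.20 (SE; 95% interval −0.63 to 0.38; limma adjusted p = 0.886). MEF2A lies on chromosome 15 at positions 99565417 to 99716466 (plus strand) and shares 770 exon bases with LYSMD4 on the opposite strand. LYSMD4 had 128 and 166 reads in the knockdown libraries and 169 in the control. Like MEF2A it was lowest in knockdown 1, and the part of shared reads was not tested.

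MEF2D was at 6.07 and 5.22 FPKM in the knockdown libraries, on either side of 5.85 in the control (605, 543 and 632 reads), with a log2 fold change of −0.05 ± 0.19 (SE; 95% interval −0.50 to 0.41; limma adjusted p = 0.963). Its locus is chromosome 1, 156463727 to 156500828, minus strand. The 4 MEF2 genes summed to 13.4 and 13.7 FPKM in the knockdown libraries, against 15.1 in the control. MEF2D took 45.2% and 38.003% of that sum, against 38.8%, and MEF2C 32.2% and 35.8%, against 35.6%. MEF2B had 5 and 1 reads, against 9.

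The KLF factors bind CACCC and GC-rich DNA through 3 zinc fingers at their end, and KLF2, KLF4 and KLF6 share that end. Their last 84 coding bases before the stop codon (GENCODE release 29, in reading direction), which encode the last finger, are given with capitals at the 38 positions that differ among the 3.
KLF2: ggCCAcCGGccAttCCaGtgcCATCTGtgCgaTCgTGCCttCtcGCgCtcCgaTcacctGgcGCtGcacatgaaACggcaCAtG
KLF4: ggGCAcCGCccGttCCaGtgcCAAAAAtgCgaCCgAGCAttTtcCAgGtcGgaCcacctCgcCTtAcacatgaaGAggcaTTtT
KLF6: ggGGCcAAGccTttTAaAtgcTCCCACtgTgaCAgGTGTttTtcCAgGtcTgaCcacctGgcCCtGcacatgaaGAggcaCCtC
KLF2 and KLF4 are identical at 59 of these bases and encode the same residue at 25 of 28 codons, while KLF6 shares 21 of 28 with each of them. The longest run shared by any transcripts of KLF2 and KLF4 is 17 bases.

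KLF6, a widely expressed early response factor, was at 16.3 and 14.02 FPKM in the knockdown libraries, against 11.97 in the control (1561, 1400 and 1241 reads). Both knockdown libraries were above the control beyond counting error (ratios 1.36, interval 1.27 to 1.47, and 1.17, interval 1.08 to 1.26), and knockdown 1 was above knockdown 2 (1.165, 1.083 to 1.253). KLF6 was the only one of the 9 genes with both intervals above 1, against 21.1% of all genes tested. Its log2 fold change, the largest of the 9 in the main fit, was 0.32 ± 0.19 (SE; 95% interval −0.16 to 0.79; limma adjusted p = 0.657). In that fit 27.3% of all genes tested had a larger absolute log2 fold change. The rank was not stable, as MAPK7 exceeded KLF6 in limma-voom (0.362 against 0.338) and under quantile normalization (0.310 against 0.229). Its locus is chromosome 10, 3775996 to 3785281, minus strand.

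KLF4, a factor of monocyte differentiation and of pluripotency, was at 1.11 and 1.53 FPKM in the knockdown libraries and 1.55 in the control (63, 91 and 96 reads). Knockdown 1 was the low library and knockdown 2 was level with the control, and the log2 fold change was −0.15 ± 0.26 (SE; 95% interval −0.79 to 0.50; limma adjusted p = 0.893). Its locus is chromosome 9, 107484852 to 107490482, minus strand.

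KLF2, the best known transcriptional output of the cascade, was at 0.382 and 0.427 FPKM in the knockdown libraries, against 0.851 in the control. These values rest on 12 and 14 reads, against 29 in the control, and the 95% Poisson intervals of the levels overlapped between the libraries (0.197 to 0.667 and 0.233 to 0.716 FPKM, against 0.570 to 1.22). The ratios to the control were 0.449 (exact interval 0.209 to 0.907) and 0.501 (0.245 to 0.980), so both intervals lay below 1. Among the genes of the main test 11.7% had this, a share not computed for genes with as few reads as KLF2. KLF2 was below the filter of 1 FPKM and was not in the main test. Its mean difference in log2(FPKM + 1) was −0.40, a value without a test. In limma-voom its log2 fold change was −1.04 (95% interval −2.34 to 0.25), with an adjusted p of 0.549. It was the only member at least 1.5-fold away from the control on 1 side in both libraries. Among genes averaging 10 or more reads, 5.98% were that much lower in both, and among the genes of the main test 3.69%. In bulk RNA, fewer cells that express KLF2 and less KLF2 RNA per cell cannot be told apart.

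KLF2 is on chromosome 19 at positions 16324817 to 16327874 (plus strand). Its promoter, which in endothelial cells is driven by MEF2 factors, is shown because it joins the MEF2 and KLF members. The 250 bases before its RefSeq start (chr19:16324576-16324825, plus strand, GRCh38.p14) are printed with the motif CTANNNNTAG, a loose form of a MEF2 site, in capitals.
KLF2 promoter: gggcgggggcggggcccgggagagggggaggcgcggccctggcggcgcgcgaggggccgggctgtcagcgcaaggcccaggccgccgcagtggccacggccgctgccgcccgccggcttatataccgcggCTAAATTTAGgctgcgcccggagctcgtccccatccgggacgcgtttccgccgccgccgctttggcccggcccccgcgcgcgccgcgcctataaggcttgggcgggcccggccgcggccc
N stands for any base, so a match need not be a MEF2 site. The motif was searched on both strands in windows of 300 bases around RefSeq starts, where 959 of 35116 windows held it (2.73%). The 10 members had 20 such windows, and 2 held the motif, 1 of KLF2 and 1 of MEF2A. The other 18, which include the single window of KLF4 and of KLF6, held no such letters. In KLF2 the motif CTAAATTTAG ends 111 bases before the start. In MEF2A it ends 14 bases before the RefSeq start that follows the stretch printed next (chr15:99565734-99565983, plus strand).
MEF2A promoter: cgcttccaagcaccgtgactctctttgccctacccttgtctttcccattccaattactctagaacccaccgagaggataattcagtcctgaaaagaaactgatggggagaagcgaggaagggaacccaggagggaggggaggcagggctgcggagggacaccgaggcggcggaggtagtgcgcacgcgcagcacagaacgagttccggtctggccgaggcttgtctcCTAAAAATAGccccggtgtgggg
A match of letters is a description and no measure of binding in these cells.

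Within the KLF family the 3 members were a small part. KLF1, the erythroid member, took 42.0% and 43.5% of the summed FPKM of 17 KLF genes in the knockdown libraries and 43.2% in the control, at 61.7 and 55.8 FPKM, against 56.5. KLF6 ranked 3 and took 11.1% and 10.9%, against 9.14%. KLF4 took 0.752% and 1.19%, against 1.19%, and KLF2 0.260% and 0.332%, against 0.650%. Of the 14 other KLF genes 9 were measured, 3 of them higher and 2 lower in both knockdown libraries, and 0 passed. KLF13 had the lowest p, at 4.77 and 5.18 FPKM, against 6.82 in the control (log2 fold change −0.39 ± 0.18, SE; limma adjusted p = 0.566), followed by KLF10 (0.29 ± 0.20) and KLF16 (0.19 ± 0.20).

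**Figure D4:**
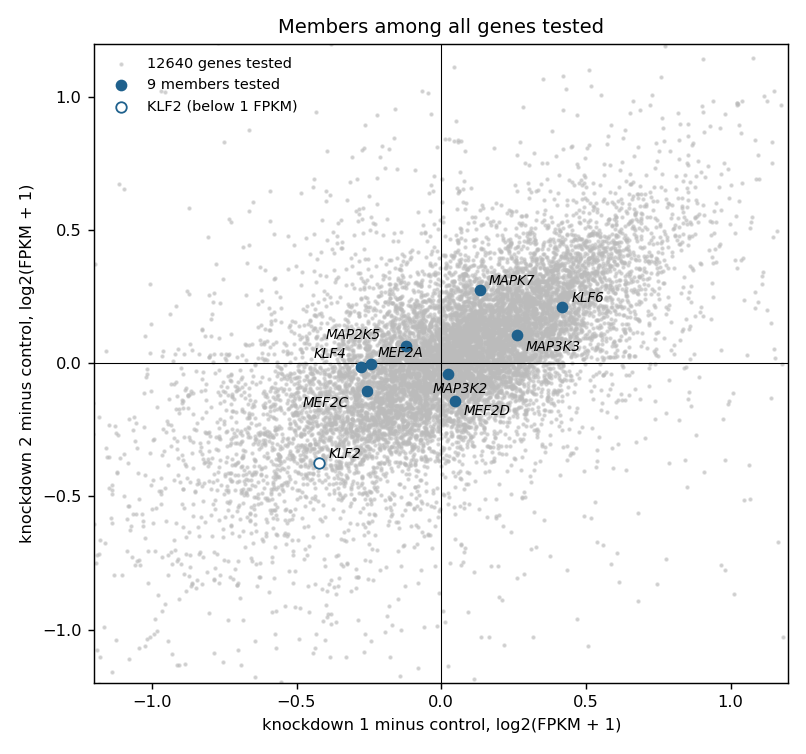
Difference from the control in log2(FPKM + 1) in knockdown 1 (horizontal) and knockdown 2 (vertical) for the 12640 genes tested (grey, with 309 outside the axes) and the members (blue, KLF2 open because it is below 1 FPKM). Both axes share the control library. The 9 tested members lie within the dense centre of the cloud.

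Around the cascade, 117 other genes in 8 lists were read from the same test. Of these 73 were measured, 33 were higher in both knockdown libraries (45.2%) and 17 lower in both (23.3%), and 0 passed over all genes. In limma-voom 2 passed, TRAF7 and CCND1, both lower. The median log2 fold change of the 73 was 0.07, against 0.04 for all genes.

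Genes of the CCM complex, which binds MEKK3, did not all lie on 1 side of the control. PDCD10 (CCM3) was at 21.8 and 20.4 FPKM in the knockdown libraries, against 17.5 (log2 fold change 0.26 ± 0.18, SE), and its partner kinase STK25 at 20.3 and 17.6, against 15.4 (0.28 ± 0.19). In these 2 of the 7 measured genes both counting intervals lay above 1, near the 21.1% of all genes tested. CCM2, the subunit that contacts MEKK3, was at 4.05 and 5.69 FPKM, against 4.18, and so was high in knockdown 2 only. KRIT1 was at 2.12 and 1.66, against 1.93. Of the 7 measured genes of that list, TRAF7 included, 3 were higher and 2 lower in both, and 0 passed.

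MEKK2, MEKK3 and MEK5 join through PB1 domains, and ERK5 is held by the HSP90 co-chaperone CDC37. CDC37 was at 123.3 and 104.9 FPKM in the knockdown libraries, against 84.1 in the control, with a log2 fold change of 0.43 ± 0.17 (SE; limma adjusted p = 0.536). PARD6A, a PB1 protein of cell polarity, was at 1.55 and 1.57, against 0.796 (36, 38 and 20 reads; limma adjusted p = 0.588), and was the only one of the 73 genes at least 1.5-fold higher in both libraries, against 2.52% of all genes. Its control value lay below 1 FPKM, so PARD6A was in this count only through its knockdown values. The autophagy receptor gene NBR1 was at 11.7 and 12.8, against 13.4. Of 5 measured genes 4 were higher and 1 lower in both, and 0 passed.

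Of 14 other measured MAP3K and RAF genes, 9 were higher and 2 lower in both, and 0 passed, with a median log2 fold change of 0.09. MAP3K6 was at 3.26 and 3.53 FPKM in the knockdown libraries, against 4.55, and MAP3K10 at 4.43 and 4.82, against 5.73. MAP3K8, which activates the MEK1 branch, was at 3.89 and 5.17, against 3.17 (log2 fold change 0.40 ± 0.22, SE; limma adjusted p = 0.624).

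MEF2 factors are held inactive by class IIa histone deacetylases. HDAC9 was at 2.35 and 4.16 FPKM in the knockdown libraries, against 4.95 in the control (615, 1137 and 1405 reads), with a wide gap between the knockdown libraries (log2 fold change −0.52 ± 0.29, SE; limma adjusted p = 0.631). HDAC7 was at 14.9 and 15.5, against 18.3 (−0.25 ± 0.18; 0.692), and the MEF2 coactivator gene CREBBP at 5.10 and 4.04, against 5.58 (−0.25 ± 0.20; 0.728). Of 13 measured MEF2 regulators 4 were higher and 4 lower in both, and 0 passed. Genes of the kinases that keep these deacetylases out of the nucleus were present, with SIK3 at 6.37 and 5.48 FPKM, against 5.51, and SIK2 at 4.54 and 5.47, against 4.85, while CAMK4 had 0 and 0 reads, against 1.

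Of the 8 measured genes known as targets of MEF2 or ERK5, 4 were higher and 3 lower in both, and 0 passed by limma. CCND1, which encodes cyclin D1, was at 4.23 and 4.30 FPKM in the knockdown libraries, against 8.80 in the control, and fell by limma-voom (adjusted p = 0.0106; limma adjusted p = 0.403). With TRAF7 and ENG it made up the 3 of 73 genes at least 1.5-fold lower in both, against 3.69% of all genes. TRAF7 is the gene the knockdown targets, so its place in this count came from the design. ENG averaged below 1 FPKM in the knockdown libraries and was in this count only through its control value of 1.90 FPKM. The platelet gene GP1BA was at 1.16 and 1.67, against 2.32 (limma adjusted p = 0.624), and the phosphatase gene PTPN11 at 39.5 and 35.5, against 30.2 (0.649). NR4A1, a direct MEF2 target in T cells, was at 2.74 and 2.20, against 1.84, and JUN at 32.1 and 37.5, against 28.8.

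Most genes known as targets of KLF2, KLF4 or KLF6 were not measured here: 6 of 21 averaged 1 FPKM or more, and the lymphocyte egress gene S1PR1 had at most 1 read in any library. Of the 6, 4 were lower in both knockdown libraries and 0 higher, against 30.8% and 42.5% of all genes tested. Of the 6, 0 passed, and the median log2 fold change was −0.31. CDKN1A, the p21 cell cycle inhibitor, was at 9.31 and 8.69 FPKM, against 12.9 in the control (−0.47 ± 0.18, SE; limma adjusted p = 0.526), RHOB at 8.34 and 8.81, against 11.7 (−0.40 ± 0.18; 0.560), and the TGF-beta co-receptor gene ENG at 0.588 and 1.13, against 1.90 (−0.66 ± 0.30; 0.568). TGFBR1 was at 10.6 and 10.3, against 12.2. In these 4 of the 6 both counting intervals lay below 1, against 11.7% of all genes tested. ENG was among the 6 only through its control value, so its place in these counts and in the median came with the filter. CDKN1A, RHOB and TGFBR1 were above 1 FPKM in every library. NOS3, the endothelial KLF2 target, was at 5.29 and 4.16, against 4.30, on either side of the control.

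**Figure D5:**
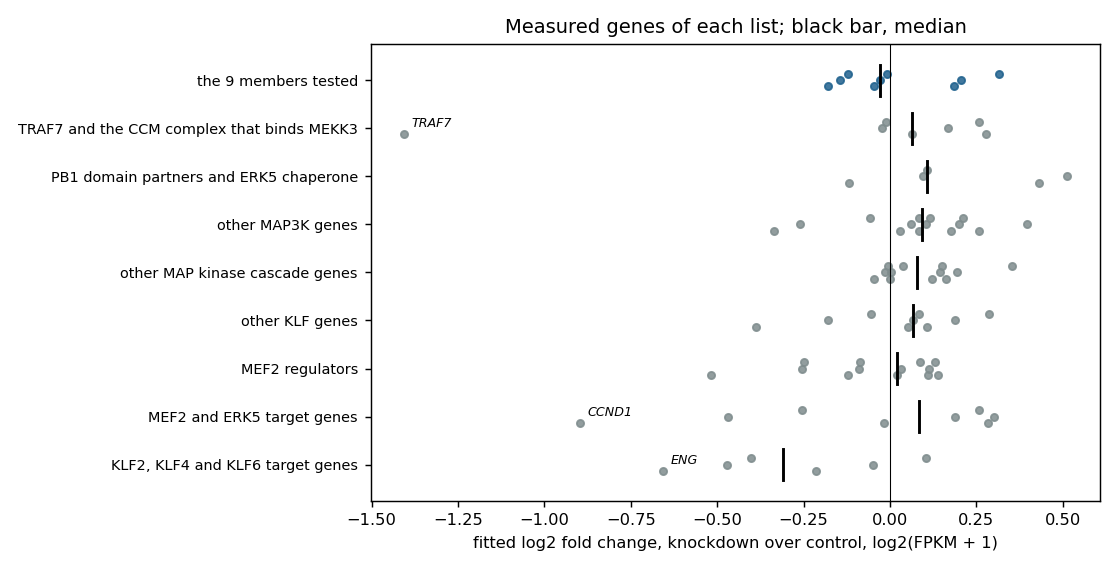
Fitted log2 fold change (knockdown over control, log2(FPKM + 1)) of each measured gene of the 9 tested members and of the 8 other lists, with a black bar at each median. The medians lie between −0.31 and 0.11, and TRAF7, CCND1 and ENG are the genes lower by more than 0.6.

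The genes most like 2 of the members were sought among 4194 protein-coding genes averaging 10 FPKM or more, by the distance between their pairs of log2 ratios to the control over the 3 libraries. MAP3K3 had log2 ratios of 0.31 and 0.13, and the nearest genes were ZBTB5 (0.31 and 0.13), METTL17 (0.31 and 0.13) and BAZ1B (0.31 and 0.13). In all, 91 genes lay within a distance of 0.05 of it. MEF2C had −0.31 and −0.12, with NR2F6 (−0.32 and −0.12), CISH (−0.31 and −0.11) and RGL2 (−0.31 and −0.14) nearest and 23 genes within 0.05. With 3 libraries such likeness is easily met.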

How the data were processed

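RNA was sequenced in 3 libraries, 2 of TRAF7 knockdown cells and 1 control, and the authors deposited 1 table of FPKM values per library. BWA, Bowtie and the build hg19 stand in the submitters' processing notes without role or version, and no source used here gives the counting tool. All 58735 gene identifiers matched GENCODE release 29 (GRCh38), whose symbols and coordinates are used. FPKM multiplied by its summed exon length was a whole multiple of 1 step in 100% of values above 0 (within 0.05), so reads were recovered. The deposited scaling equals median-of-ratios factors (0.963, 1.01 and 1.04 for knockdown 1, knockdown 2 and control).

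Genes averaging 1 FPKM or more were tested on log2(FPKM + 1), a scale that understates the change of low genes, by limma 3.58.1 with intensity trend in R 4.3.3. The count test named in the design for count files was not used. Intervals on levels are exact 95% Poisson intervals, and on ratios exact conditional intervals (scipy 1.17.1). They cover counting error only. Alternatives were 2 normalizations, 2 filters, no trend, 3 pseudocounts, limma-voom on recovered reads, scaling to assigned reads and each knockdown library alone. Both tests were tested on simulated data. All members are named, with up to 3 genes of lowest p per other list and further genes of the lists picked for their roles after their values were seen. Some genes of the lists are not reported here. The members and lists were chosen with earlier results of these data known. Promoter sequences are from RefSeq (GRCh38.p14), and all 10 members matched. The coding stretches are from GENCODE release 29.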

Additional observations from a re-analysis of the deposited data

How the results depend on the processing

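The number of members past an adjusted p of 0.05 was 0 in the main test and in all 10 alternatives with a test. Over all genes the count of 0 went to 1465 with no filter, where limma itself warned that its variances are unreliable, to 3 at a mean of at least 5 FPKM and to 130 in limma-voom. It stayed at 0 under the other 7. MAP3K2 and MAP2K5, both near 0, turned sign under quantile normalization (0.079 and 0.015), and the cause was not tested. Of 106 recomputed log2 fold changes of members, 5 changed sign, 3 of them with 1 knockdown library left, and the lowest adjusted p was 0.531. KLF2 was at −0.40 in log2(FPKM + 1), the scale that understates the change of low genes, and at −1.04 in limma-voom on reads. These 2 values stand on unlike scales. The 1 member past 1.5-fold in both libraries, KLF2, was 0 at 2-fold and 0 at a mean of at least 5 FPKM, where KLF2 is left out, and 1 with either knockdown library alone. With knockdown 1 or knockdown 2 left alone, values without a test, MAP3K2 (0.022 or −0.038), MAP2K5 (−0.12 or 0.064) and MEF2D (0.047 or −0.14) took opposite signs. KLF4 (−0.28 or −0.014) and MEF2A (−0.24 or −0.0018) lay near 0 in knockdown 2, and KLF6 (0.42 or 0.21), MAP3K3 (0.26 or 0.11), MAPK7 (0.13 or 0.27), KLF2 (−0.42 or −0.38) and MEF2C (−0.26 or −0.10) kept their direction. No paired analysis was possible because there is only 1 control library. Depth limits KLF2, KLF4 and MAPK7 most, with 12 to 133 reads a library.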
